A study of Homo sapiens with 18 samples.

Results

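The genes followed were 8 genes of prostaglandin synthesis, signalling and breakdown, measured in A549 cells, an established line of human lung adenocarcinoma with alveolar epithelial features. They were PLA2G4A, PTGS1, PTGS2, PTGES, PTGES2, PTGER2, PTGER4 and HPGD, and every non-control probe that carried one of these names in the scanner files was taken, on every array. This gave 12 of the 41000 distinct probes on the array, which occupied 30 of the 43376 non-control spots. Of these probes 11 passed the filter on dim spots, which kept 28665 probes in all, and every one of the 8 genes had at least 1 probe that passed. The dropped probe was the second one of PTGER4.

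RNA was hybridised to 18 Agilent arrays in a single colour, and the arrays fall into 6 groups with 3 biological replicates each, lettered A, B and C. Cells were exposed for 2 h in serum-free medium to Ludox silica nanoparticles (NPs) at 0.02 mg/mL, either SM30 NPs of 9 nm diameter or AS30 NPs of 18 nm diameter. SM30 cells recovered for 3 h, AS30 cells for 3 h or for 22 h, and each of these groups had a control group of its own that received no NPs. All values describe this single tumour line grown without other cell types, so levels of a secreted lipid and its action on neighbouring cells are outside the measurement. Lower mRNA per cell and fewer cells expressing a gene cannot be told apart on these arrays.

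Prostaglandins are lipid signals made from arachidonic acid. The acid is cut from membrane phospholipids by cytosolic phospholipase A2, encoded by PLA2G4A, and is turned into prostaglandin H by the cyclooxygenases, of which PTGS1 is the constitutive form and PTGS2 the inducible form. Terminal synthases then form prostaglandin E, with PTGES as the inducible microsomal enzyme and PTGES2 as a second, more evenly expressed one. Prostaglandin E acts through receptors that raise cyclic AMP, PTGER2 (EP2) and PTGER4 (EP4), and HPGD is the dehydrogenase that inactivates it.

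The SM30 set lay on slides of its own and was scanned on other days than the AS30 sets, so that differences in level between these sets cannot be told apart from slide and scan. At 3 h the AS30 arrays lay on 1 slide and their controls on another. The share of spots well above background ran from 51.9% to 72.4% over the 18 arrays and was low, at 52.4%, on AS30 control C at 3 h, at 52.4% and 51.9% on AS30 controls A and B at 22 h and at 56.9% on AS30 array B at 22 h. The 5 epithelial markers examined were well above background on all 18 arrays. Of the alveolar type II markers, SFTPA1 and SFTPC were so on all 18 arrays, SFTPD on 9 and SFTPB on 1. Of the 4 leukocyte markers CD14 and CD3E were well above background on all 18 arrays and PTPRC and MS4A1 on none. Of the 3 fibroblast markers COL1A1 was so on all 18, DCN on 1 and COL3A1 on none, and of the endothelial markers CDH5 was so on 1 and PECAM1 on none.

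For PTGS2, the gene that passed the test after SM30 NPs, and for its downstream synthase PTGES and the receptor PTGER4, the 250 bases before the RefSeq start (GRCh38.p14) are given 5′ to 3′ on the strand of the gene. Capitals mark matches on either strand. The TATA box was searched as TATAAA, the core of the cyclic AMP response element as TGACG and the C/EBP motif as TTNCGCAA. The AP-1 site was searched as TGANTCA, the GC box of Sp factors as GGGCGG, and NF-kB by its consensus.
PTGS2, chr1:186680424-186680673, minus strand: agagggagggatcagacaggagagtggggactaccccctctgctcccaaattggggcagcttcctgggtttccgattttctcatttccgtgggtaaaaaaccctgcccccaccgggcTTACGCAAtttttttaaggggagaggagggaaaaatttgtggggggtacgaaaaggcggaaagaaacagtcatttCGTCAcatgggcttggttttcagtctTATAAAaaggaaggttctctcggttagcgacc
PTGES, chr9:129753043-129753292, minus strand: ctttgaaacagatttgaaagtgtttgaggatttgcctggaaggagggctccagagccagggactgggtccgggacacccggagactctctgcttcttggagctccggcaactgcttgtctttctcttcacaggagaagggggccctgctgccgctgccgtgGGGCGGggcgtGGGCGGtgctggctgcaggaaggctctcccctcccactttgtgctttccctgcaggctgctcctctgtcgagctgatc
PTGER4, chr5:40679665-40679914, plus strand: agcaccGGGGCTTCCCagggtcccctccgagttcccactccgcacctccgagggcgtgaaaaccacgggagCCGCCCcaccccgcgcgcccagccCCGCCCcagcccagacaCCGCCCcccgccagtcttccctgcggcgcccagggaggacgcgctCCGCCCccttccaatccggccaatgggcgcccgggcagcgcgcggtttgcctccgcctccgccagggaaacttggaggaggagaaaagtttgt
The PTGS2 window held a TATA box 32 to 27 bases before the start, a cyclic AMP response core on the other strand 58 to 54 bases before it, and a C/EBP match 133 to 126 bases before it. TATAAA was found in 10.7%, TGACG in 21.2% and TTNCGCAA in 0.752% of the 35116 RefSeq windows of the same length. The PTGES window held 2 GC boxes and the PTGER4 window 4, beside 1 NF-kB match 244 to 235 bases before the start. GC boxes occurred in 42.6%, the NF-kB consensus in 9.96% and TGANTCA, which was absent from all 3 windows, in 6.57% of windows. No 2 of the matches in these windows overlapped. These are exact matches of letters, and whether a factor binds there was not measured. A stretch that differs from the searched letters by a single base was not marked. A window without a match to a motif may therefore still hold a site of that factor.

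Among the 8 genes, PTGS2 was the only one that passed the test between treated and control cells, and it did so after SM30 NPs, where it rose 4.06-fold. Of all probes tested 7.49% passed in that comparison, against 2.52% and 3.58% with AS30 NPs at 3 h and 22 h. The call of PTGS2 was lost when any 1 SM30 pair was left out. The fold of PTGS2 was 2.02 after AS30 NPs at 3 h and 1.34 at 22 h, neither of which passed. The difference between its SM30 and AS30 responses did not pass either. PTGES and PLA2G4A lay higher, and both receptors lower, in every SM30 array than in every SM30 control, yet none of these 4 genes passed. Groups without overlap were common in this comparison, with 19.2% of probes higher and 23.8% lower in all treated arrays. For PTGES2, PTGS1 and HPGD the SM30 and control arrays overlapped, with log2 differences of -0.09, -0.03 and 0.32.

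**Figure D1:**
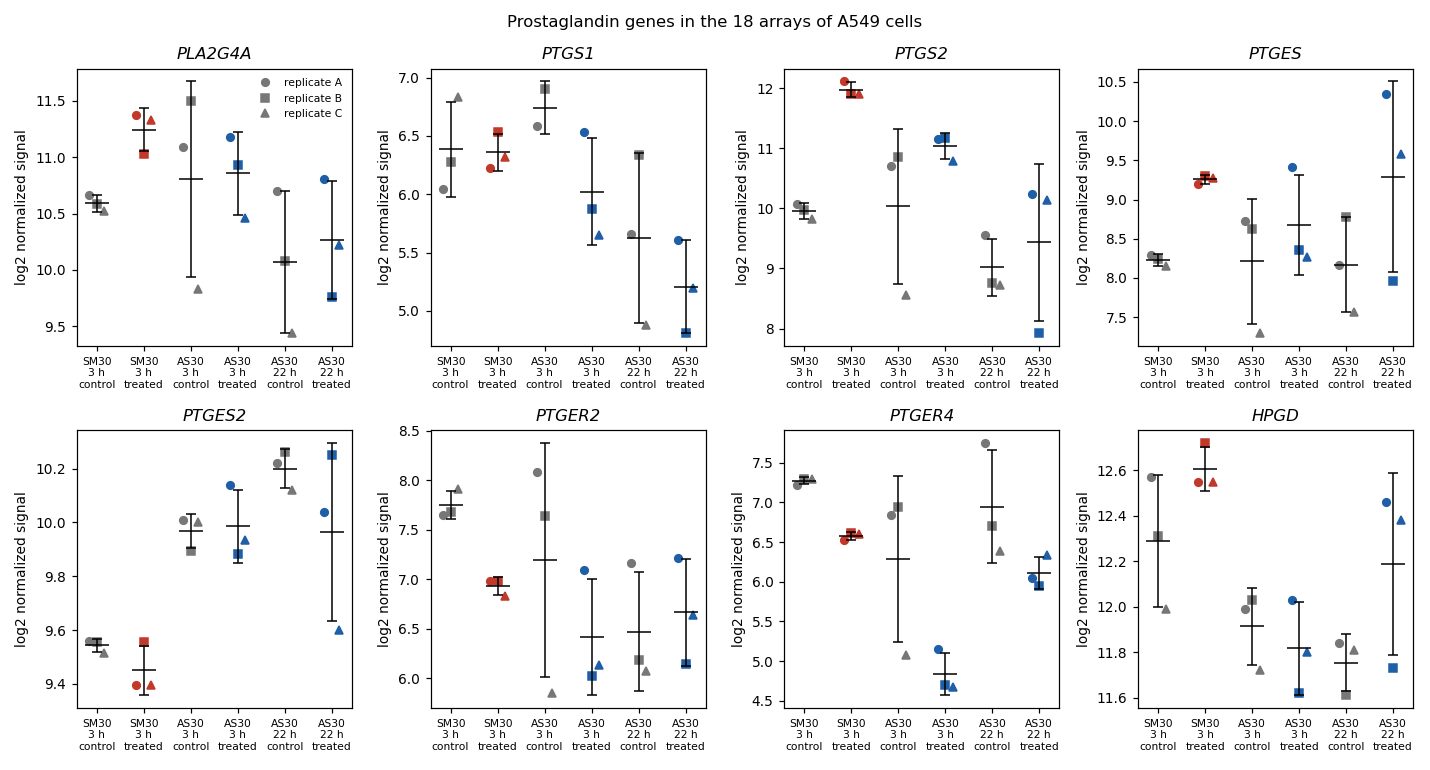
The log2 normalized signal of each of the 8 genes (vertical axis, scaled separately for each gene) is plotted for the 6 groups, with 1 point per array, marked by its replicate letter, and a bar with whiskers for the mean and SD. PTGS2 in the 3 SM30 arrays sat between 11.90 and 12.12, above the controls at 9.82 to 10.07, whereas the AS30 groups overlapped their controls.

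PTGS2 was represented by probe A_24_P250922 (hg18 chr1:184908092-184908151), which was printed in 10 spots per array, and by A_24_P77008 (chr1:184909731-184909789) in 1 spot. Over the 10 spots of the first probe the coefficient of variation had a median of 4.08% per array, from 2.58% to 11.3%. The log2 normalized signal of this probe reached 12.12, 11.90 and 11.91 after SM30 NPs (replicates A, B, C), while the controls gave 10.07, 9.98 and 9.82. The SM30 arrays lay close together and well above all 3 controls. The log2 difference was 2.02 (SE 0.45, 95% interval 1.00 to 3.05, n = 3 pairs), with a limma adjusted p of 0.033. In this comparison 7.49% of the 28664 probes tested passed, and 4.35% did so with a higher signal. PTGS2 ranked 141 among them by log2 difference and 1491 by p. The second probe gave 1.99 (SE 0.50, limma adjusted p = 0.048).

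The size of the PTGS2 change ran from 1.70 to 2.16 log2 units over 22 alternative analyses, with a limma adjusted p from 0.0047 to 0.31. Leaving out an AS30 pair could not move this size, which stayed at 2.02, as only the shared spread changes. The call was kept in 17 of the 22, the fits without an AS30 pair among them. It was lost when any 1 of the SM30 pairs A, B or C was left out (limma adjusted p = 0.12, 0.15 and 0.17), when slide was a fixed block (0.31) and when all spots were kept (limma adjusted p = 0.068). Of all probes 1.98%, 1.01% and 1.04% passed without these pairs in turn. With slide as a fixed block 1.17% passed and with all spots kept 3.15%, against 7.49% in the main fit. SM30 array A shared its slide with the 3 controls, and within that slide it was 2.16 log2 units higher. By the same measure PTGES was 0.97 and PLA2G4A 0.78 higher, and PTGER2 and PTGER4 differed by -0.77 and -0.75. SM30 arrays B and C lay on another slide, which held no control. The SM30 difference with slide as a fixed block therefore rests on array A alone.

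With AS30 NPs at 3 h the log2 signal of PTGS2 was 11.16, 11.18 and 10.79 for replicates A, B, C, against 10.70, 10.85 and 8.55 for the controls. Control C was far below the other controls, and array C of the treated group was below control B. The pair ratios were therefore uneven, at 0.46 and 0.33 log2 units in pairs A and B and 2.24 in pair C. The mean difference of 1.01 (SE 0.45, limma adjusted p = 0.21) fell to 0.40 without pair C. Control C was also the array of that group with fewest spots well above background, and the part this had in the result was not tested.

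At 22 h after AS30 NPs the PTGS2 signal was 10.24, 7.92 and 10.14, against 9.56, 8.76 and 8.73 in the controls. Arrays A and C exceeded all 3 controls, whereas array B, which had the fewest detected spots of its group, was below all of them. The log2 difference was 0.42 (SE 0.45, limma adjusted p = 0.62), and it was 0.29, 1.05 and -0.08 without pairs A, B and C in turn. The 3 treated arrays shared their slide with control C, and within that slide their mean was 0.71 log2 units higher for PTGS2 and 1.72 higher for PTGES. The second probe had differences of 0.87 at 3 h and 0.11 at 22 h, and neither passed (limma adjusted p = 0.31 and 0.92). The gap between the 2 probes was 0.67 to 0.90 log2 units on the SM30 set and 0.88 to 1.51 on the AS30 sets.

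The direct comparison of the particles did not separate their effects on PTGS2. The SM30 response exceeded the AS30 response at 3 h by 1.01 log2 units (SE 0.64, 95% interval -0.44 to 2.46), with a limma adjusted p of 0.49. The AS30 response at 22 h was 0.59 lower than at 3 h on the same scale (log2 difference -0.59, 95% interval -2.04 to 0.86, limma adjusted p = 0.69). Both intervals include 0 and also differences of more than 2 log2 units. Single pairs carried much of these values. The difference between SM30 and AS30 was 1.62 without AS30 pair C and 0.67 without AS30 pair B, and that between 22 h and 3 h was 0.02 without pair C at 3 h and 0.03 without pair B at 22 h.

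PTGS1, the constitutive cyclooxygenase, was dim on these arrays. Its brighter probe A_23_P216966 (chr9:124194873-124194932) was well above background on 13 of 18 arrays, with log2 signals of 6.22, 6.53 and 6.32 in the SM30 arrays and 6.04, 6.28 and 6.83 in their controls. The groups overlapped, and the log2 difference was -0.03 (SE 0.36, limma adjusted p = 0.97). With AS30 NPs at 3 h the signals were 6.54, 5.88 and 5.65 against 6.58 and 6.90 in controls A and B, control C being missing, so that the difference of -0.54 rested on 2 pairs (limma adjusted p = 0.48). At 22 h the probe was not well above background in any control array, and no fold is given. The second probe A_24_P64167 (chr9:124197357-124197416) was well above background on 7 arrays, 6 of them in the SM30 set, where its log2 difference was 0.08.

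PLA2G4A, the phospholipase that releases arachidonic acid, was measured by A_23_P11685 (chr1:185224275-185224334) in 10 spots per array, with a median coefficient of variation of 3.82%. Its log2 signal was 11.38, 11.03 and 11.33 in the SM30 arrays and 10.67, 10.59 and 10.52 in their controls, so that the groups did not overlap. The log2 difference was 0.65 (SE 0.25, n = 3 pairs) and did not pass (limma adjusted p = 0.15). With AS30 NPs the signals were 11.18, 10.93 and 10.46 at 3 h, against 11.09, 11.50 and 9.84 in the controls, and the difference was 0.05. At 22 h they were 10.81, 9.76 and 10.22 against 10.70, 10.08 and 9.44, with a difference of 0.19. Treated and control arrays overlapped at both times, and limma adjusted p was 0.93 and 0.70.

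PTGES, the inducible prostaglandin E synthase that works downstream of PTGS2, was read by A_24_P403417 (chr9:131541331-131541390). Its log2 signal was 9.19, 9.31 and 9.27 in the SM30 arrays and 8.30, 8.24 and 8.15 in their controls. The treated arrays were about 1 log2 unit above the controls without overlap, and both groups were tight, with SDs of 0.06 and 0.08. The difference was 1.03 with an SE of 0.51 in the fit that shares its spread with the AS30 classes, and it did not pass (limma adjusted p = 0.25). When the 3 SM30 ratios were fitted alone, an analysis added after the data had been seen, PTGES passed (limma adjusted p = 0.021), as did PTGS2, PTGER2 and PTGER4, so that 4 of the 8 genes were called where 8.09% of all probes were. PTGES also passed in the SM30 set without AS30 pair B at 22 h (limma adjusted p = 0.034).

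In the AS30 sets PTGES was scattered. At 3 h the signals were 9.41, 8.36 and 8.26 against 8.73, 8.62 and 7.29 in the controls, and at 22 h they were 10.34, 7.96 and 9.58 against 8.17, 8.78 and 7.57. Arrays A and C at 22 h were above every control and array B was not. The log2 difference was 0.46 at 3 h (limma adjusted p = 0.61) and 1.12 at 22 h (SE 0.51, limma adjusted p = 0.24). Without pair B the value at 22 h was 2.09, with a limma adjusted p of 0.013, and 4.29% of all probes passed in that fit. It was the only 1 of 22 alternatives in which PTGES passed at 22 h, and the difference ran from 0.59 to 2.09 over them.

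PTGES2, the second prostaglandin E synthase (A_24_P106953, chr9:129925828-129925887), had the smallest SE of the 8 genes in the ratio fit, 0.12 in each class. Its log2 signal was 9.40, 9.56 and 9.40 in the SM30 arrays against 9.56, 9.56 and 9.52 in their controls, a difference of -0.09 (95% interval -0.37 to 0.19). With AS30 NPs the difference was 0.01 at 3 h (95% interval -0.26 to 0.29) and -0.24 at 22 h (95% interval -0.51 to 0.04). None of these 3 differences passed (limma adjusted p = 0.68, 0.95 and 0.29).

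**Figure D2:**
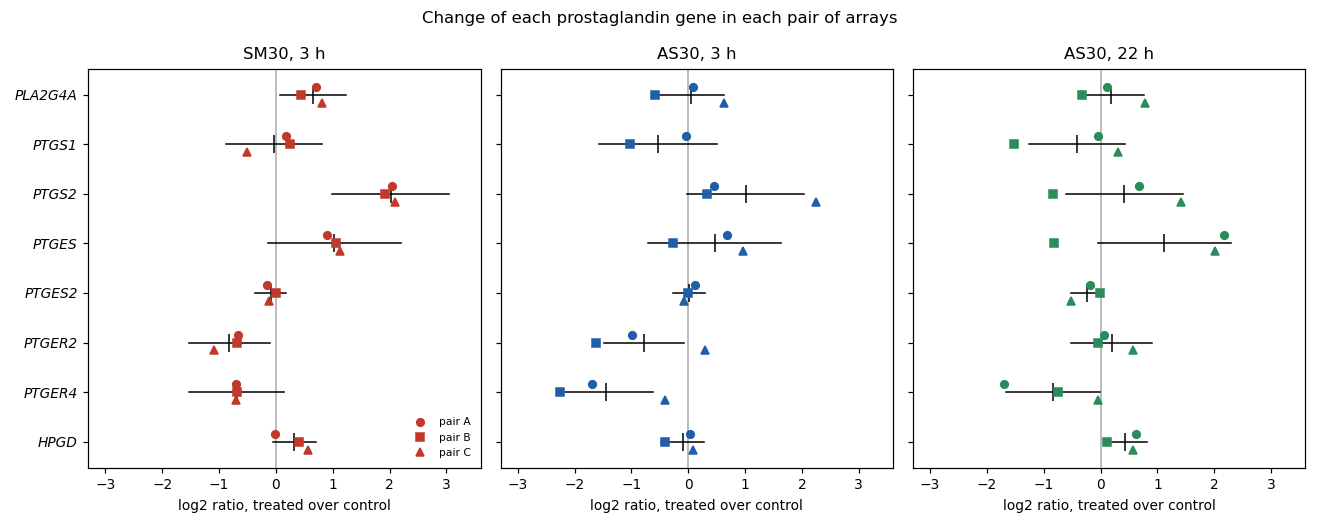
Each panel gives the log2 ratio of treated over control (horizontal axis) in pairs A, B and C of one class for the 8 genes, with a tick and line for the limma mean and its 95% interval. In SM30 the 3 PTGS2 ratios lay between 1.93 and 2.09, whereas AS30 ratios of the same gene ran from 0.33 to 2.24 at 3 h and from -0.84 to 1.42 at 22 h.

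Both receptors had lower mean signals than controls at 3 h with either NP, and neither passed the test. PTGER2 (A_23_P151710, chr14:51864180-51864239) had log2 signals of 6.98, 6.98 and 6.83 in the SM30 arrays and 7.65, 7.68 and 7.92 in their controls. Every treated array was below every control, and the difference was -0.82 (SE 0.31, limma adjusted p = 0.15). Without AS30 pair C at 3 h, which enters the shared spread, it passed (limma adjusted p = 0.032). With AS30 NPs at 3 h the signals were 7.09, 6.02 and 6.14 against 8.08, 7.64 and 5.85, and control C was again the low array. The difference was -0.78 (limma adjusted p = 0.17), and -1.31 without pair C (limma adjusted p = 0.024), in a fit where 10.7% of all probes passed. With normexp background correction it was -0.30 (limma adjusted p = 0.16). Over 22 alternatives it ran from -1.31 to 0.20, passed in 3 and changed sign in 1. At 22 h the signals were 7.22, 6.14 and 6.64 against 7.16, 6.18 and 6.07, which overlapped, with a difference of 0.19 (limma adjusted p = 0.75).

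PTGER4 (A_23_P148047, chr5:40729320-40729379) was 6.52, 6.62 and 6.60 in the SM30 arrays and 7.22, 7.30 and 7.30 in their controls, 2 narrow groups that did not overlap. The log2 difference was -0.69 (SE 0.36, limma adjusted p = 0.28). In AS30 arrays at 3 h it was 5.15, 4.70 and 4.67 against 6.84, 6.94 and 5.07 in the controls. The difference there was -1.45 (SE 0.36), with the smallest adjusted p of the 8 genes in that comparison (limma adjusted p = 0.073), and 0 of the 8 passed where 2.52% of all probes did. Only 1 of the 3 treated arrays and 2 of the 3 controls had this probe well above background. Without pair C the difference was -1.97 (limma adjusted p = 0.026), in a fit where 10.7% of probes passed. With slide as a random block it was -1.53 (limma adjusted p = 0.016), where 13.6% passed. Treated and control arrays lay on different slides here, and a random block does not separate slide from exposure. Over 22 alternatives the difference ran from -1.97 to -0.30 and passed in 3. With normexp background correction it was -0.30 (limma adjusted p = 0.16), and the same setting moved PTGER4 to -0.18, PTGER2 to -0.27 and PTGES to 0.56 in the SM30 comparison, none of which passed.

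At 22 h after AS30 NPs the PTGER4 signal was 6.05, 5.95 and 6.34 against 7.75, 6.71 and 6.39 in the controls. All treated arrays were below all controls, as for 11.1% of all probes there, although array C and control C differed by only 0.05 log2 units. The mean difference was -0.83 (SE 0.36, limma adjusted p = 0.22), from -1.23 to -0.27 over the alternatives, and 0 of the 8 genes passed at 22 h, where 3.58% of all probes did. The second PTGER4 probe A_23_P435394 (chr5:40728260-40728319) was well above background on 2 arrays and gives no comparison.

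HPGD, the enzyme that inactivates prostaglandin E, was the brightest of the 8 genes by its main probe A_23_P213050 (chr4:175653320-175666450, a span of 13131 bases for 1 short probe), although signals of different probes cannot be ranked as amounts. Its log2 signal was 12.55, 12.72 and 12.55 in SM30 arrays and 12.57, 12.31 and 11.99 in their controls, which overlapped (difference 0.32, limma adjusted p = 0.27). In AS30 arrays it was 12.03, 11.62 and 11.80 against 11.99, 12.03 and 11.72 at 3 h, and 12.46, 11.73 and 12.38 against 11.84, 11.61 and 11.81 at 22 h. The 22 h arrays A and C were above their controls and array B was within them, and the difference of 0.44 (SE 0.17) did not pass (limma adjusted p = 0.17). The second probe A_24_P71904 (chr4:175648261-175648320) differed by 0.02 at 22 h and by -0.53 at 3 h (limma adjusted p = 0.97 and 0.31). Its 95% intervals, -0.66 to 0.71 and -1.22 to 0.16, include the differences of the main probe, 0.44 and -0.10. Both probes were read on the same arrays, so these intervals do not test whether their responses differ, and this was not tested. The gap between the probes ran from 2.38 to 3.02 log2 units on the SM30 set and from 1.80 to 3.28 on the AS30 sets. In AS30 pair A at 22 h the log2 ratio was 0.62 by the main probe and -0.48 by the second. In pair C the values were 0.56 and 0.50.

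Over the 8 genes the SM30 comparison had 4 values above 0 and 4 below, with a median of 0.15 log2 units against -0.05 over all probes tested. Treated and control arrays did not overlap for 5 of the 8 genes, where 43% of all probes measured on all 6 arrays did not. The 5 genes were 3 higher, where 19.2% of probes were, and 2 lower, where 23.8% were. With AS30 NPs at 3 h none of the 7 genes measured on all 6 arrays was without overlap, where 23.8% of probes were, and at 22 h PTGER4 alone was, where 23.9% of probes were. The medians were -0.04 with AS30 NPs at 3 h and 0.19 at 22 h, against 0.01 and -0.0047 over all probes. At an unadjusted p under 0.05, 3, 2 and 2 genes passed in the 3 comparisons, where 25.1%, 24.4% and 22.9% of probes did. Neither the SM30 response against the AS30 response, nor the 22 h response against that at 3 h, nor the F-test over the 3 classes called any of the 8 genes by limma, and at an unadjusted p under 0.05 the count was also 0 in each, where 14.6%, 16.9% and 19.3% of probes passed. Of all probes 0.014%, 0.0285% and 0.0855% were called in these tests.

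The control groups differed among themselves as well. PTGES2 was lower in the SM30 controls, at 9.52 to 9.56, than in the AS30 controls at 3 h, at 9.89 to 10.01, without overlap. The log2 difference was -0.43 (SE 0.14, limma adjusted p = 0.034), in a comparison that called 26.8% of all probes, and 11.1% of all probes as lower. This call was kept in 10 of 16 alternatives. It was lost with normexp (limma adjusted p = 0.054) and without any 1 of SM30 controls A, B and C or AS30 controls A and C (limma adjusted p = 0.068 to 0.083). At an unadjusted p under 0.05, 2 of the 8 genes passed between these control groups, where 39.1% of probes did. PTGER4 was 0.99 log2 units higher in the SM30 controls (limma adjusted p = 0.086), and PTGS2 differed by -0.08 (limma adjusted p = 0.94). Between AS30 controls at 22 h and at 3 h none of the 8 genes passed, where 1.3% of probes did, and 1 passed at an unadjusted p under 0.05, where 14.9% of probes did. PTGS2 was 1.02 lower at 22 h on the log2 scale (difference -1.02, SE 0.59, limma adjusted p = 0.44), and -1.76 without control C at 3 h.

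Over the 12 AS30 arrays, treated and control, the level of several genes went with the share of spots well above background on the array. Pearson's r was 0.75 for PTGS2, 0.66 for PTGES, 0.66 for HPGD, 0.50 for PLA2G4A and 0.34 for PTGER2, but -0.62 for PTGES2 and -0.34 for PTGER4, and 0.12 for PTGS1 over 11 arrays. Without the 2 arrays farthest from the median share r was 0.64 for PTGS2 and 0.71 for PTGES. It was lower for HPGD (0.55), PLA2G4A (0.35) and PTGER2 (0.085). For PTGES2, PTGER4 and PTGS1 it was -0.65, -0.55 and 0.40. These are descriptions over arrays of 4 groups that share 3 slides and 1 day of scanning, and the part of array quality in the AS30 differences was not tested. The 6 SM30 arrays all had 65.5% or more of spots well above background.

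**Figure D3:**
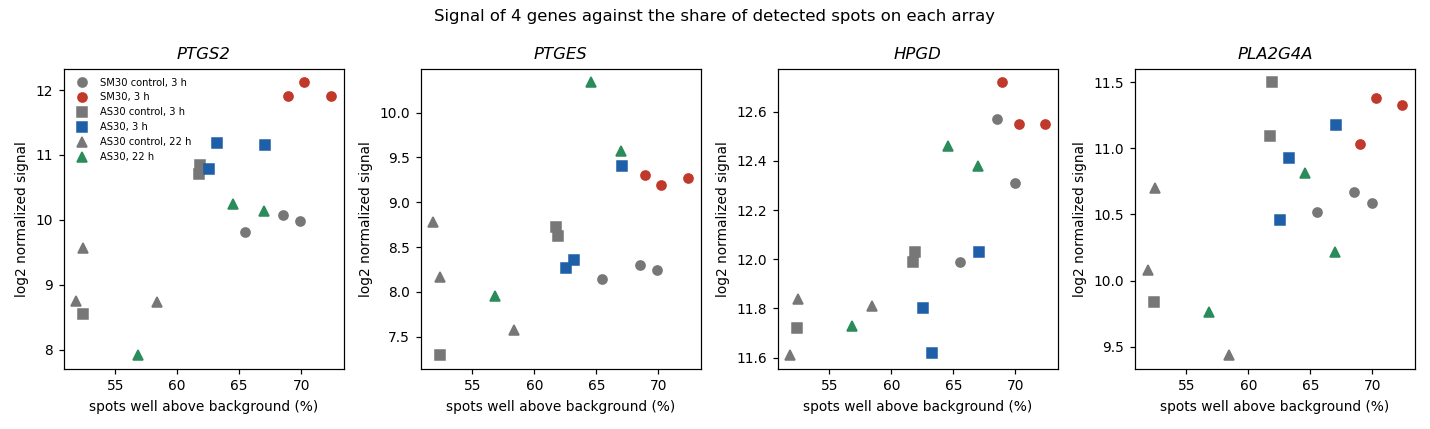
The log2 normalized signal of PTGS2, PTGES, HPGD and PLA2G4A (vertical axes) is plotted against the percentage of non-control spots well above background on each of the 18 arrays (horizontal axes), with symbols for the set and colours for treated and control arrays. The AS30 control C at 3 h, at 52.4%, and the AS30 array B at 22 h, at 56.9%, had the lowest PTGS2 signals, 8.55 and 7.92. AS30 controls A and B at 22 h, with shares as low at 52.4% and 51.9%, had higher PTGS2 signals of 9.56 and 8.76.

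The other genes of eicosanoid metabolism were read from a list of 34 genes, of which 23 were measured. In the SM30 comparison 2 of the 23 passed as higher and 1 as lower, where 7.49% of all probes passed, and the median of the list was -0.17 log2 units, against -0.05 over all probes. PLA2G4C, a calcium-independent phospholipase A2, had signals of 282, 250 and 256 in the SM30 arrays and 103, 107 and 129 in their controls. It rose by 1.23 log2 units (SE 0.30, limma adjusted p = 0.046). It was also the only gene of the list to pass with AS30 NPs at 22 h, where 3.58% of all probes passed. The signals were 1010, 461 and 575 against 148, 167 and 302, and the difference was 1.72 (SE 0.30, limma adjusted p = 0.029). In each of these comparisons the treated arrays were above all controls. At 3 h after AS30 NPs the difference of PLA2G4C was 0.58 (limma adjusted p = 0.27). Its second probe gave 1.36 in the SM30 set (limma adjusted p = 0.22) and -0.84 with AS30 NPs at 3 h (limma adjusted p = 0.32). The PLA2G4C level in the SM30 controls was 1.40 log2 units below that in the AS30 controls at 3 h (difference -1.40, limma adjusted p = 0.0028).

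ALOX5, which starts leukotriene synthesis, was dim, with SM30 signals of 48.0, 93.4 and 50.1 against 23.2, 32.4 and 22.0, and rose by 1.26 log2 units (limma adjusted p = 0.029). With AS30 NPs at 3 h its difference was -0.85 (limma adjusted p = 0.14). It was well above background on 9 of 18 arrays and was not testable at 22 h. The thromboxane receptor TBXA2R had a difference of -0.42 by its brighter probe (limma adjusted p = 0.14), while its second probe passed as lower in the SM30 set, at -0.81 (limma adjusted p = 0.041). TBXAS1, the thromboxane synthase, fell from 1260, 1440 and 1490 to 936, 1030 and 966 (log2 difference -0.51, SE 0.10, limma adjusted p = 0.024). Its second probe differed by 0.10 (limma adjusted p = 0.90) with an SE of 0.39, too wide to tell it from 0 or from the first probe. With AS30 NPs at 3 h none of the 23 genes passed, where 2.52% of all probes did. Between the SM30 controls and the AS30 controls at 3 h, 4 of the 23 were higher and 2 lower, a share close to the 26.8% of all probes called there, among them the prostaglandin exporter ABCC4, which was 0.80 log2 units higher (limma adjusted p = 0.004). None of the measured genes passed in the difference between SM30 and AS30 or between 22 h and 3 h.

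The genes whose 9 pair ratios ran most like those of PTGS2, among 9514 genes with all 9 ratios, were C9orf72 (Pearson's r 0.97), GJA1 (0.95), FA2H (0.94), TNFAIP3 (0.94) and RPS6KA5 (0.94). TNFAIP3, an NF-kB target that dampens inflammatory signalling, had mean log2 differences of 1.71, 0.67 and 0.68 in SM30, AS30 at 3 h and AS30 at 22 h. GJA1, the gap junction protein connexin 43, had differences of 0.52, 0.24 and 0.05. For PTGER4 the most alike were AADAT, ELK4, SLC30A5, DLG1 and COCH (r 0.98), and for HPGD they were FBXL4, TACC1, RAB11FIP2, EIF2AK2 and ZDHHC21 (r 0.94 to 0.96). With 9 ratios from 18 arrays that share normalization and, for the AS30 pairs, low-detection arrays, such coefficients describe a shared course of ratios only.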

How the data were processed

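A549 cells were profiled on 18 one-colour Agilent arrays. The authors deposited scanner files of spot intensities (Agilent Feature Extraction 10.5.1.1) on a linear scale, background-corrected, with quality flags, and a matrix of quantile-normalized intensities, used here as an alternative only. No column was left unused.

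The processed signals were log2-transformed and quantile-normalized over the arrays, spots that were not positive and significant or were outliers were set to missing, replicate spots were averaged, and probes missing on over 33% of arrays were removed. Each treated array was set against the control array of the same letter, and the 9 log2 ratios, in 3 classes, entered a linear model (limma 3.58.1, R 4.3.3, with statmod 1.5.0). The Benjamini-Hochberg adjustment ran over every probe tested, and the threshold was 0.05. Differences between control groups came from a model of the 6 groups of single arrays. A gene with several probes was called by the probe of highest mean signal. Named genes were the 8 genes, the 5 genes most like PTGS2, PTGER4 and HPGD, and listed pathway genes that passed, at most 4 per comparison. Genes and lists were chosen with earlier results of these data known.

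The alternatives were other scaling, background correction with normexp (offset 50), other spot filters, the values deposited as a matrix, averaged probes, slide as a block, no pairing, and leaving out each pair or array. Fits of each class alone and with array weights were added after the data had been seen. The scripts were tested on simulated data. Depth does not apply to arrays, and the number of arrays limits the precision. Probe positions are those of the scanner files (hg18), and promoter windows are from RefSeq, GRCh38.p14.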

Additional observations from a re-analysis of the deposited data

How the results depend on the processing

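Over the alternatives, 133 of 158 counts of genes called among the 8 stayed within 1.5 times the main count. Of 1118 differences of single genes, 11 lost and 19 gained significance, and none that passed changed sign. Among those not called either way, 55 changed sign. Only PTGS2 after SM30 NPs and PTGES2 between the control groups at 3 h passed in the main fit and could lose a call. They kept it in 17 of 22 and 10 of 16 alternatives. The main counts were 1 for SM30 against controls, 0 for AS30 at both times and for both differences between responses, and 1 for SM30 controls against AS30 controls. For SM30 the count was 0 with all spots kept, where 3.15% of all probes passed, and 0 with slide as a fixed block (1.17%). It was 2 (PTGER2 and PTGS2) with spots not well above background set to missing (11.7%), and 0 to 2 when single pairs were left out (1.01% to 9.49%). It was 4 with the SM30 ratios alone (which called 8.09% of all probes) and 2 with array weights (18.7%), both added after the data had been seen. For AS30 at 3 h it was 1 (PTGER2) with spots not well above background missing, where 5.03% of all probes passed, and 1 (PTGER4) with slide as a random block (13.6%). It was 0 to 2 with pairs left out (0.285% to 10.7%) and 2 with array weights, a fit that called 55.6% of all probes there. For AS30 at 22 h it was 0 to 1 with pairs left out, where 0.00716% to 4.84% of all probes passed. Array weights gave 2 (PTGER4 and PTGS2) for SM30 against AS30 responses and 1 (PTGER2) for 22 h against 3 h, where that fit called 23.2% and 14.9% of all probes. For SM30 controls against AS30 controls it was 0 with normexp, where 25.1% of all probes passed, and 0 to 2 with single arrays left out (18.3% to 27%). For AS30 controls at 22 h against 3 h it was 0 to 1, and 0.694% to 5.54% of all probes passed with single arrays left out. The cause was not tested. The comparison of SM30 controls with AS30 controls could not be fitted with slide as a fixed block.

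Same-letter arrays deviated together weakly (r from -0.09 to 0.48, over 0.1 in 3 of 9 pairs), so the data do not settle that letters pair the samples. The methods speak of a corresponding control sample without naming letters, and pairing by letter was assumed here. With no replicate block the count was 1 (PTGS2) for SM30, where 8.78% of all probes passed. It was 0 for AS30 at 3 h and 22 h (4.59% and 4.99%) and for the differences between responses (0.0489% and 0.245%). With the letter as a replicate block the control comparisons gave 0 and 1 (1.23% and 27.6%).

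Only 3 arrays per group, a spread shared over classes with low-detection arrays, and dim signals of PTGS1 and PTGER4 limit what these comparisons can resolve.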
